A study of Mus musculus with 6 samples.

Results

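Tight junctions and desmosomes hold neighbouring epithelial cells together, and their genes were followed here in mouse embryonic stem (ES) cells that carried a Prmt6 expression plasmid. Members were the genes named as claudins (Cldn), desmogleins (Dsg), desmocollins (Dsc), plakophilins (Pkp) or tight junction proteins (Tjp), together with Dsp, Jup, Ocln, F11r, Marveld2, Marveld3, Epcam, Cgn, Ppl and Evpl, chosen by symbol. The rule found 46 genes among 19938 with a probe set that names a single gene, 31 of the tight junction and 15 of the desmosome.

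RNA from 6 samples of the mouse ES line HM1 was read on 1 Affymetrix array each. The control group (3 arrays) had received the empty vector pCAGIP.puro and the Prmt6 overexpression group (3 arrays) the same vector with mouse Prmt6, and both groups were under puromycin at 1 ug/ml for 3 days in medium with 15% serum and LIF at 1000 U/ml. The labels state neither clones nor the promoter, and they do not tie replicates to separate cultures. P-values therefore cover the scatter of these arrays only, and that scatter may be technical. Prmt6, an arginine methyltransferase of the nucleus, read 6.84, 6.58 and 7.12 in control and 7.32, 7.40 and 7.33 in overexpression (log2 signal), a rise of 1.42-fold (adjusted p = 0.0406), and this call ended in 5 of 6 fits that left out 1 array (adjusted p from 0.0788 to 0.119) but not without control replicate 3. It was not checked whether the probe set reads the transcript of the plasmid.

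Tight junctions seal the space between epithelial cells near their apical edge. Claudins form the strands and set which ions pass, occludin and the Marveld proteins join the strands, junctional adhesion molecules sit beside them, and the Tjp (ZO) proteins and cingulin tie them to actin. Desmosomes lie below and resist pulling: desmogleins and desmocollins are cadherins that meet between cells, plakoglobin (Jup) and plakophilins bind their tails, and the plakin desmoplakin (Dsp) anchors the complex to keratin filaments. ES cells grow as compact colonies of epithelial character, and mouse embryos build both junctions when the trophectoderm forms.

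With the Prmt6 plasmid, desmoplakin had the largest rise of the members, 4.18-fold (2.06 ± 0.094 on the log2 scale, SE, n = 3 per group), followed by the desmosomal cadherin Dsc2 (2.82-fold) and the claudins Cldn4 (2.82-fold) and Cldn6 (2.38-fold). In all, 11 of 46 members rose and 0 fell at an adjusted p under 0.05 (limma, two-sided, Benjamini-Hochberg over all genes). Among all genes, 7.05% rose, 3.25% fell and 10.3% did either. At an unadjusted p under 0.05 there were 14 members higher and 2 lower, beside 2814 higher and 2075 lower among all 19938 genes. With each array centred on its median, 1838 genes rose and 447 fell, against 1405 and 647 as deposited, and 12 members rose and 0 fell. The members' median change was 0.045 (log2), beside 0 for all genes, so most members lay near 0 and the rises belonged to a minority of the family.

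All 11 members that rose had their 3 overexpression arrays above their 3 control arrays, and so had 3 others, Cgn, Tjp1 and Cldn10. The share of all genes arranged this way was 17%, and 12.7% had the overexpression arrays below, as had the members Pkp4 and Dsg1b. Of the desmosome members 7 of 15 rose, and of the tight junction members 4 of 31. The difference between these shares was not tested.

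**Figure D1:**
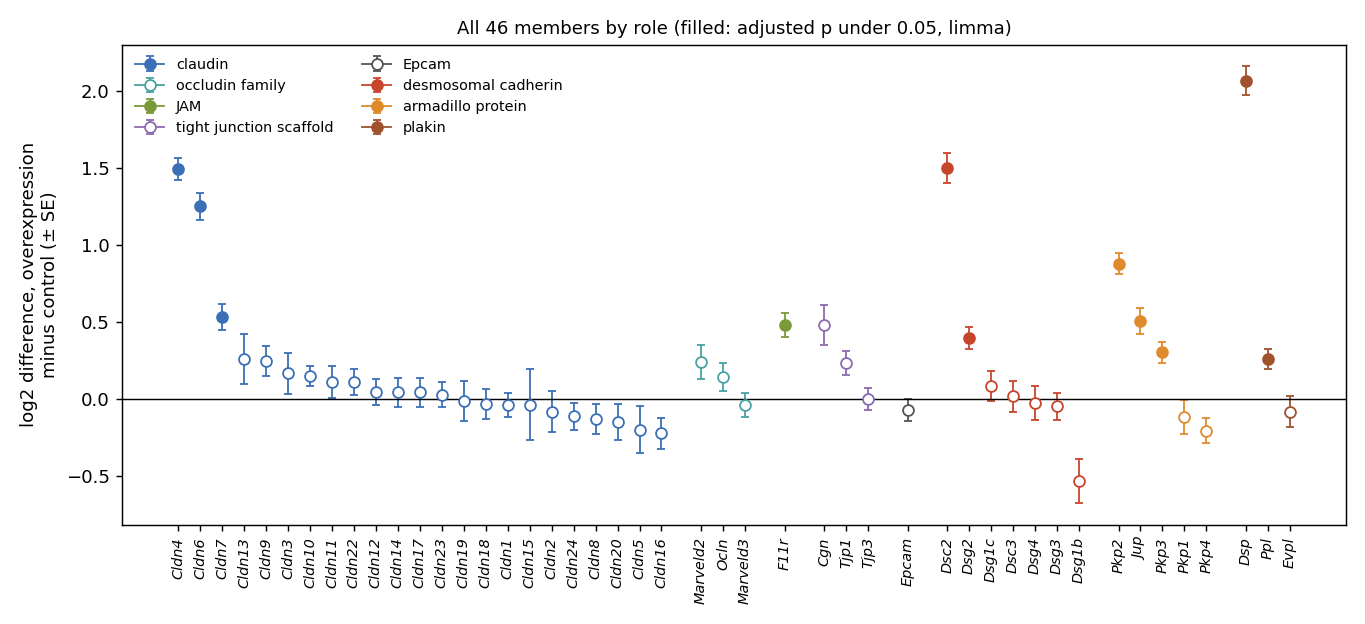
Log2 difference (overexpression minus control, vertical axis, ± SE, 3 arrays per group) of each of the 46 members, grouped by role along the horizontal axis; filled points passed an adjusted p of 0.05. Cldn4, Cldn6, Dsc2 and Dsp stand above 1, while 20 of 23 claudins lie between -0.22 and 0.26 as open points.

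Claudins were the largest family, with 23 measured genes, of which 3 rose, 0 fell and 20 did not pass (limma, 4 higher and 0 lower at an unadjusted p under 0.05). Cldn4, a barrier-forming claudin of many simple epithelia, read 8.65, 8.74 and 8.77 in control and 10.24, 10.16 and 10.24 in overexpression (log2 signal). The groups were separated by more than 1 log2 unit on every array, and the rise was 1.49 ± 0.072 (SE, adjusted p = 7.10e-06). Cldn6, a claudin of embryonic epithelia, read 9.09, 9.20 and 9.16 in control and 10.56, 10.33 and 10.31 in overexpression. It rose by 1.25 ± 0.088 (adjusted p = 5.79e-05), with overexpression replicate 1 the highest. Cldn7, which binds Epcam, read 6.92, 7.11 and 7.08 in control and 7.68, 7.53 and 7.50 in overexpression. Its groups did not overlap, and its rise was smaller, 1.45-fold (0.53 ± 0.085, adjusted p = 0.00546).

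The other 20 claudins had changes from -0.22 (Cldn16, a claudin of magnesium uptake in the kidney) to 0.26 (Cldn13). Above 0 were Cldn13, Cldn9, Cldn3, Cldn10, Cldn11, Cldn22, Cldn12, Cldn14, Cldn17 and Cldn23, and below 0 were Cldn19, Cldn18, Cldn1, Cldn15, Cldn2, Cldn24, Cldn8, Cldn20, Cldn5 and Cldn16. Their signs were not stable: Cldn1, Cldn15, Cldn18 and Cldn19 lay above 0 with arrays centred on medians or quantile normalized. Of these 20, Cldn12 had the brightest signal, 7.78 ± 0.11 in control and 7.83 ± 0.064 in overexpression (log2, SD, n = 3). Its difference of 0.047 had a 95% interval from -0.14 to 0.23, which leaves out a change of the size seen for Cldn7. Cldn15, a pore-forming claudin of the intestine, scattered most, from 4.29 in overexpression replicate 1 to 5.29 in replicate 3. Cldn5, the claudin of endothelium, was at -0.20 ± 0.15 (adjusted p = 0.484) with overlapping groups, and the barrier claudin of epidermis, Cldn1, read between 3.14 and 3.32 on all 6 arrays.

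In 2 pairs of neighbouring claudin genes, picked after their values were seen, 1 gene rose and its neighbour did not pass. Cldn4 and Cldn3 are neighbours among the members, 39279 bases apart on chromosome 5 of the mouse reference (GRCm38.p6). Cldn3, also a barrier claudin, read 6.64, 6.54 and 6.10 in control and 6.65, 6.53 and 6.60 in overexpression. Its groups overlapped, and its difference was 0.17 ± 0.13 (adjusted p = 0.505, 95% interval -0.14 to 0.47), against 1.49 for Cldn4. Cldn6 and Cldn9 adjoin on chromosome 17, and Cldn9 read 5.50, 5.60 and 5.36 in control and 5.85, 5.58 and 5.77 in overexpression. The difference for Cldn9 was 0.25 ± 0.098 (adjusted p = 0.162, 95% interval 0.023 to 0.47), against 1.25 for Cldn6. That interval leaves out 0, so Cldn9 leaned up although it did not pass. The Cldn4 signal minus the Cldn3 signal ran from 2.01 to 2.67 on control arrays and from 3.59 to 3.64 on overexpression arrays. For Cldn6 minus Cldn9 these ranges were 3.59 to 3.80 and 4.54 to 4.75. Both differences therefore shifted without overlap, by 1.33 and 1.00 (log2), with an exact permutation p of 0.10 each, two-sided, the smallest that 3 against 3 allows (4 pairs compared, chosen after their values were seen, adjusted p = 0.10). Cldn13 lies 29592 bases from Cldn4 on its other side. Its groups overlapped and its difference of 0.26 ± 0.16 did not pass (adjusted p = 0.381). In other pairs of nearby claudin genes, Cldn1 with Cldn16, Cldn17 with Cldn8 and Cldn24 with Cldn22, neither gene passed and the groups of each gene overlapped.

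**Figure D2:**
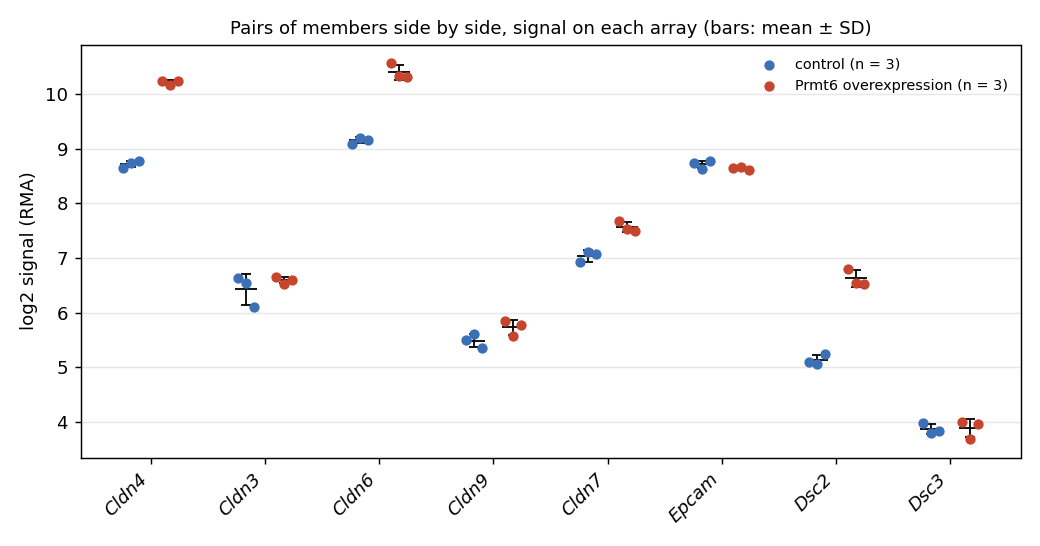
Log2 signal on each array (vertical axis) for 4 pairs of members, with control in blue, overexpression in red and black bars for mean ± SD of 3 arrays. Cldn4, Cldn6, Cldn7 and Dsc2 are higher in overexpression while Cldn3, Cldn9, Epcam and Dsc3 overlap; heights of different genes rest on different probes and are not to be compared.

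Promoter letters are shown for the neighbours Cldn4 and Cldn3, for Cldn6 and for Dsp. Dsp, Cldn4 and Cldn6 had the largest rises among members with a promoter in the RefSeq table, and Cldn3 was taken as the neighbour of Cldn4. Each is the 250 bases before the RefSeq start site (GRCm38.p6), 5′ to 3′ on the gene's strand, at chr5:134946935-134947184, minus strand; chr5:134985964-134986213, plus strand; chr17:23679115-23679364, plus strand; and chr13:38151044-38151293, plus strand. Capitals mark 6 motifs searched on both strands, none of which overlap here. They were AACCGGTT for grainyhead-like factors, TGANTCA for the AP-1 family, GGAATG for the TEAD family, CACCTG for the E-box read by Snail and Zeb repressors, GGGCGG for the GC box, and TATAAA for the box bound by TATA-binding protein.
Cldn4: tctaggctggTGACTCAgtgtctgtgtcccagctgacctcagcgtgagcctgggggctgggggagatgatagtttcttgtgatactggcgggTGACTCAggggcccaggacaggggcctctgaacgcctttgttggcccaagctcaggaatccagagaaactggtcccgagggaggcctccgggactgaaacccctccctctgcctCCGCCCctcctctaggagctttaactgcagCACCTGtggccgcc
Cldn3: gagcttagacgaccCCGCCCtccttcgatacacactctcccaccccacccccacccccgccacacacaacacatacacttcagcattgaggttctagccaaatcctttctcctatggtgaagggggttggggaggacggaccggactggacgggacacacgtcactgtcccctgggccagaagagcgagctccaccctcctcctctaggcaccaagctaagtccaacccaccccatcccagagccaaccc
Cldn6: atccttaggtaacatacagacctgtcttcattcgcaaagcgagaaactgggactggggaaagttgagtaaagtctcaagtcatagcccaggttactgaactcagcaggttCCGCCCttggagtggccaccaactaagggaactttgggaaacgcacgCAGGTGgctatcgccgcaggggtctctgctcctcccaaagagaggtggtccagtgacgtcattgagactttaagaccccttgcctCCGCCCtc
Dsp: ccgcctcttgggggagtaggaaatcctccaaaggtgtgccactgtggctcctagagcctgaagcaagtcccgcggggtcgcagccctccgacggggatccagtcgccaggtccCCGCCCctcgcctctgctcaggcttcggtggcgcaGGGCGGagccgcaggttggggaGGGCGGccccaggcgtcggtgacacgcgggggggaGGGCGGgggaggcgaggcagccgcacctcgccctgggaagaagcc

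The Cldn4 window held TGANTCA at 240 and at 158 bases before the start (first base of the match), a CACCTG match at 14 and a GC box at 44. The Cldn3 window held 1 GC box, at 236. In the Cldn6 window the E-box match lay at 93 and GC boxes at 140 and 8, and the Dsp window had 4 GC boxes and no other match. Of all 32851 windows of this length in the table, 6.75% held TGANTCA, 17.2% CACCTG, 12.6% GGAATG, 32.7% GGGCGG, 12.4% TATAAA and 0.116% AACCGGTT. The table matched 29 of 46 members by symbol, among them 6 of the 11 that rose (Cldn4, Cldn6, Cldn7, Dsp, F11r and Jup). GGGCGG was in all 6 of these and in 13 of the other 23 members. CACCTG was in 4 of 6 and in 5 of 23, and TGANTCA in 2 of 6 (Cldn4 and F11r) and in 1 of 23 (Cldn15). GGAATG was in 1 of 6 and in 3 of 23, TATAAA in 0 of 6 and in 2 of 23, and AACCGGTT in 0 of 6 and in 0 of 23. A member counted if any of its windows matched, whereas the percentages above are per window, so the measures are unlike. A match is a run of letters and was not tested for binding.

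Of the other tight junction membrane members, F11r (JAM-A), an immunoglobulin-type adhesion molecule, read 8.70, 8.79 and 8.90 in control and 9.24, 9.32 and 9.28 in overexpression. It rose 1.40-fold without overlap (0.48 ± 0.078, adjusted p = 0.00548). None of the 3 genes of the occludin family passed (limma, 0 at an unadjusted p under 0.05). Occludin (Ocln) was at 0.15 ± 0.091, Marveld2 (tricellulin, which seals the points where 3 cells meet) at 0.24 ± 0.11 and Marveld3 at -0.037 ± 0.079, and for each the groups overlapped. Epcam, an adhesion molecule of epithelial and ES cells, read 8.73, 8.63 and 8.77 in control and 8.65, 8.66 and 8.61 in overexpression. Its difference was -0.07 with a 95% interval from -0.23 to 0.093 (adjusted p = 0.616), while Cldn7 rose by 0.53. The Cldn7 signal minus the Epcam signal moved from between -1.81 and -1.52 to between -1.13 and -0.97 (exact permutation p = 0.10, the smallest possible). This pair too was chosen after its values were seen, so the p-value adds no support to the rise of Cldn7.

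Among the tight junction scaffolds, cingulin (Cgn), which links ZO proteins to the cytoskeleton, read 7.08, 7.01 and 7.02 in control and 7.77, 7.21 and 7.57 in overexpression. The groups did not overlap but the overexpression arrays were spread (SD 0.28), and the difference of 0.48 ± 0.13 did not pass (adjusted p = 0.0549). Without overexpression replicate 2 it was 0.63 and passed (adjusted p = 0.00841), and it passed in 5 further alternatives. Tjp1 (ZO-1), the main scaffold of the strands, read 8.84, 8.80 and 8.82 against 9.16, 8.95 and 9.06, a difference of 0.24 ± 0.077 that did not pass (adjusted p = 0.0969). Tjp3 (ZO-3) had equal means of 6.20 in the groups (95% interval of the difference -0.16 to 0.16).

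In the desmosome, Dsp had the largest rise. It read 6.56, 6.51 and 6.76 in control and 8.74, 8.73 and 8.55 in overexpression. The lowest overexpression array was 1.79 log2 units above the highest control array, and the adjusted p was 5.35e-06. Periplakin (Ppl), a plakin of the cornified envelope that also binds intermediate filaments, read 5.95, 5.95 and 5.91 against 6.18, 6.23 and 6.18. It rose by 0.26 ± 0.066 (adjusted p = 0.0421), but the call ended without any 1 of the 6 arrays (adjusted p from 0.0521 to 0.155) and with the replicate block (0.122). Its partner envoplakin (Evpl) was at -0.08 ± 0.10 (adjusted p = 0.699) with overlapping groups.

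Of 7 desmosomal cadherins measured, Dsc2 and Dsg2 rose, the pair that simple epithelia use. Dsc2 read 5.10, 5.05 and 5.24 in control and 6.80, 6.55 and 6.53 in overexpression, a rise of 1.50 ± 0.096 (adjusted p = 3.44e-05). Dsg2 read 7.04, 7.04 and 6.99 against 7.50, 7.42 and 7.34. Its rise was smaller, 1.32-fold (0.40 ± 0.073, adjusted p = 0.0104), and ended without control replicate 3 (adjusted p = 0.0514). The desmosomal cadherins known from stratified epithelia and hair had dim signals, with means over 6 arrays between 3.25 and 4.04. Dsg1c, Dsc3, Dsg4 and Dsg3 lay between -0.047 and 0.087, with overlapping groups. Dsg1b read 3.61, 3.58 and 3.36 in control and 2.99, 3.27 and 2.70 in overexpression, a difference of -0.53 ± 0.14 that did not pass (adjusted p = 0.0503) and did pass with the replicate block (0.0246), without overexpression replicate 2 (0.0209) and with a trended and robust variance prior (0.0273). Dsg1a, Dsg1b and Dsg1c are similar copies whose probes may share signal, and a probe set naming all 3 was at -0.13 ± 0.10 (adjusted p = 0.484). All desmosomal cadherin genes lie together on chromosome 18 of the reference, with Dsc2 and Dsg2 apart from each other and the dim genes between and beside them. The Dsc2 signal minus the Dsc3 signal went from between 1.13 and 1.41 to between 2.57 and 2.86 (exact permutation p = 0.10, the smallest possible). This pair was chosen after its values were seen and Dsc3 was dim, so the shift restates the rise of Dsc2.

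The armadillo proteins couple cadherin tails to Dsp, and 3 of 5 rose. Pkp2, the plakophilin of simple epithelia and heart, read 7.98, 7.98 and 7.97 in control and 8.89, 8.88 and 8.79 in overexpression, a rise of 1.84-fold (0.88 ± 0.068, adjusted p = 0.000100). Jup, shared by desmosomes and adherens junctions, read 8.73, 8.83 and 8.80 against 9.41, 9.18 and 9.29 (0.51 ± 0.082, adjusted p = 0.00562). Both genes had groups that did not overlap. Pkp3 read 6.11, 6.21 and 6.21 against 6.44, 6.48 and 6.52 and rose by 0.30 ± 0.07 (adjusted p = 0.0297). Its call ended without every array but overexpression replicate 1 (adjusted p from 0.0692 to 0.127) and with the replicate block (0.0801). Pkp1, the plakophilin of stratified epithelia, was at -0.11 ± 0.11 (adjusted p = 0.595). Pkp4, found mainly at adherens junctions, read 8.16, 8.24 and 8.30 against 8.13, 8.01 and 7.95, and its difference of -0.20 ± 0.079 did not pass (adjusted p = 0.155), although the overexpression arrays all lay below.

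**Figure D3:**
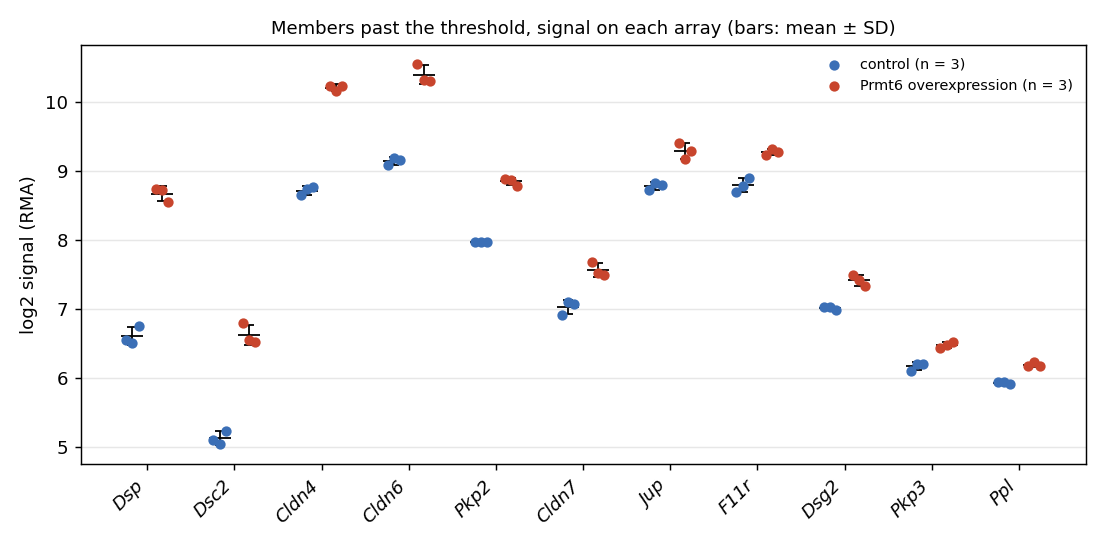
Log2 signal on each array (vertical axis) for the 11 members that rose, ordered by the size of the rise, with control in blue, overexpression in red and black bars for mean ± SD of 3 arrays. In every gene the 3 overexpression arrays lie above the 3 control arrays, by the widest margin in Dsp.

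The mean log2 signal over 6 arrays of the members that rose ran from 5.88 (Dsc2, at the 50.1 percentile of all genes) to 9.78 (Cldn6, at the 95.9 percentile). This mean includes the overexpression arrays, so a rise itself raises it, and the control mean of Dsc2 was 5.13. Bright members that did not pass were Tjp1, Epcam, Pkp4 and Cldn12. Signal depends on the probes as well as on the RNA, and detection calls were not used here.

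**Figure D4:**
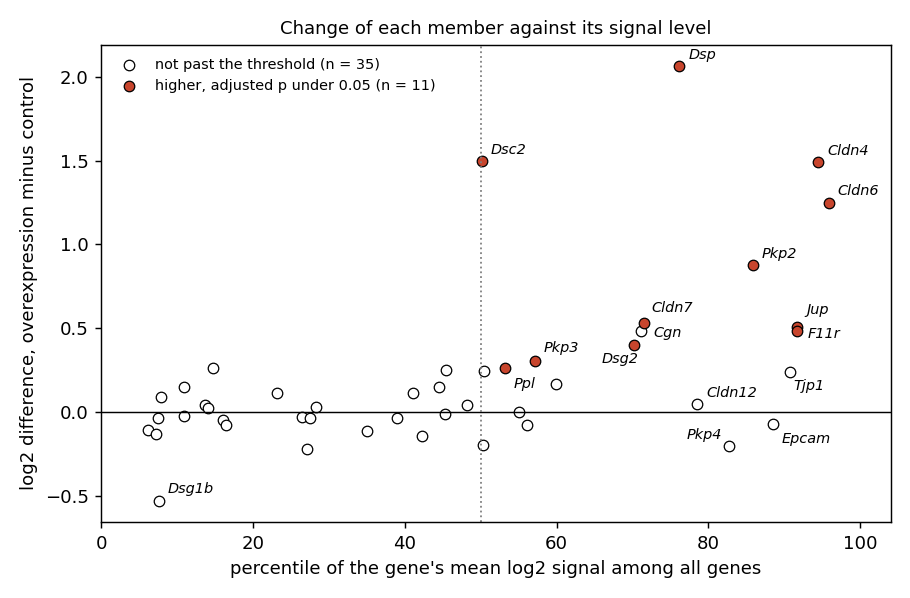
Log2 difference of each of the 46 members (vertical axis) against the percentile of its mean log2 signal among 19938 genes (horizontal axis), with a dotted line at the median. The mean is over all 6 arrays, overexpression included, and the 11 filled points that rose run from the 50.1 to the 95.9 percentile.

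Partner genes were described from lists chosen with earlier results of these data known, so their counts are no independent evidence. Beside these counts, 7.05% of all genes rose and 3.25% fell. Of 8 desmosome partners and keratins, 6 rose and 0 fell (limma, none lower at an unadjusted p under 0.05). They were the simple-epithelium keratins Krt18 (3.22 ± 0.07), Krt8 (2.89 ± 0.085), Krt19 (2.61 ± 0.081) and Krt7 (2.34 ± 0.11), the filaments that Dsp anchors, with Perp, a membrane protein of desmosomes (1.01 ± 0.066), and Krt14. Krt5, the partner of Krt14 in stratified epithelia, was at -0.20 ± 0.15 and Cdsn at -0.05. Of 12 adherens junction genes, 5 rose and 7 did not pass. The largest rises were in Vcl, which links junctions to actin (0.97 ± 0.07), the cadherins Cdh2 (0.81 ± 0.066) and Cdh1 (0.45 ± 0.071), and Nectin2 (0.45 ± 0.082). Afdn also rose (0.32 ± 0.082). Its call ended in 5 of 6 fits that left out 1 array (adjusted p from 0.0686 to 0.144) and with the replicate block (0.0779). Cdh1 and Cdh2, the cadherins of epithelia and of neural and mesenchymal cells, thus rose in the same arrays, and β-catenin (Ctnnb1) was at 0.023 ± 0.067 (adjusted p = 0.879).

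Of 19 measured scaffold and polarity genes, 7 rose and 12 did not pass. The largest rises were in Pard6b (0.68 ± 0.073), Crb3 (0.52 ± 0.12), the kinase Prkci (0.50 ± 0.076) and Patj (0.46 ± 0.077), all of the apical polarity complexes. Others of these complexes did not pass, among them Pard3 (0.0067), Pard6a (0.11), Pard6g (0.11), Prkcz (0.18) and Mpp5 (0.14). Llgl2 also rose (0.40 ± 0.066). Of 9 other tight junction membrane proteins, the tricellular receptor Lsr (0.45 ± 0.086) and Cxadr (0.31 ± 0.081) rose, Marveld1 fell by 0.34 and 6 did not pass. The call of Cxadr ended without any 1 array (adjusted p from 0.0679 to 0.167), Marveld1 kept its call only when overexpression replicate 1 was the array left out (0.0510 to 0.0914 otherwise), and the call of Lsr ended without control replicate 1 (0.0525) or 3 (0.0526). Crb3 lost its call when control replicate 1 (0.105), control replicate 2 (0.0792), overexpression replicate 2 (0.0770) or overexpression replicate 3 (0.0555) was absent. Cgnl1 and Dlg1 were among the 7 scaffold and polarity genes, and Cgnl1 lost its call whichever array was left out (0.0528 to 0.118) and Dlg1 when any control array was. Without control replicate 1 or 2, 4 of these genes rose. Of 14 transcription regulators of epithelial genes, Zeb2, a repressor of epithelial genes (0.88 ± 0.095), and the splicing regulator Esrp2 (0.41 ± 0.07) rose and 12 did not pass. Grhl2, an activator of Cldn4 and Cdh1, read between 6.87 and 6.98 on all 6 arrays (0.023 ± 0.071, adjusted p = 0.887).

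**Figure D5:**
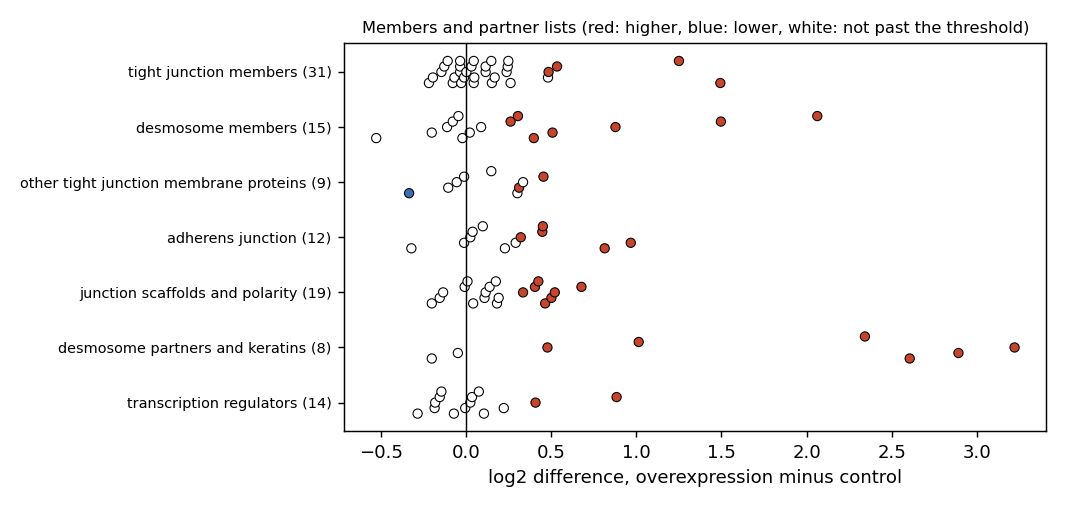
Log2 difference (horizontal axis) of each tight junction member, desmosome member and gene of the 5 partner lists (1 row per list, number of genes in parentheses; vertical scatter within a row has no meaning). Keratins Krt18, Krt8, Krt19 and Krt7 lie beyond 2, further right than any member.

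Some markers of other cell types moved in the same arrays. Among all genes 7.05% rose and 3.25% fell. In lists of 5 to 8 genes, 1 or 2 calls are too few to read against these shares, and no such test was run. The 5 simple-epithelium markers (Krt7, Krt8, Krt18, Krt19 and Cdh1) all rose, and their summed linear signal went from between 2138 and 2172 in control to between 8849 and 9876 in overexpression. All 5 are also in the partner lists above, so this count repeats those rises. Of 8 fibroblast markers 5 rose (Col1a1 by 1.34 and Col1a2 by 0.98) and 3 did not pass, with a summed signal of 329 to 373 in control and 566 to 635 in overexpression. Without control replicate 1, 2 fibroblast markers rose, as Col3a1, Dcn and Pdgfrb lost their calls, and 3 rose without control replicate 3 or overexpression replicate 3. Col3a1 lost its call in 5 of 6 such fits, Dcn in 4 and Pdgfrb in 1. The stratified-epithelium markers had 1 rise in 6 (Krt14), with sums of 215 to 234 and 223 to 243, and their regulator Trp63 was at -0.13 ± 0.10. Of 5 trophectoderm markers Eomes rose. Cdx2 at 0.26 and Gata3 at 0.52 did not pass, and neither did Tfap2c at -0.22 or Elf5 at -0.25. Of 7 endoderm markers Sox17 and Gata6 rose, and of 5 endothelial markers Tek fell by 0.70. Among 8 ES cell markers Nanog and Sox2 fell by 0.34 and 0.29 and 6 did not pass, with sums of 17154 to 17810 in control and 17528 to 17798 in overexpression. Bright genes weigh most in such sums, here Dppa5a foremost (control mean 12.83, log2). The median change of the 8 markers was -0.04, with 5 below 0 and 3 above. Sox2 lost its call whichever array was left out (adjusted p 0.0549 to 0.163), and Nanog and Sox17 lost theirs when any control array was (0.0552 to 0.0765 and 0.0634 to 0.0869). The part of these cell types in the members' rises was not tested, and in these bulk samples more cells with a transcript and more transcript per cell cannot be told apart.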

How the data were processed

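The deposited table holds 1 log2 signal per probe set and array (35556 probe sets, 0 missing values, 2 decimals), made by the authors with RMA per the submitters' processing notes. RMA corrects background, equalizes the arrays and summarizes probes, and would take out most of any change common to all genes. No source used here gives the software or its version. Array medians were 5.60 to 5.62 in control and 5.54 to 5.59 in overexpression. Array precision is limited by the 3 arrays per group.

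Gene names came from the platform annotation (1 symbol for 21789 probe sets, several for 1621, none for 12146). Each gene was represented by its brightest single-symbol probe set. All 46 members matched the RefSeq table, and Cldn10 alone had a second such probe set. All genes were fitted with limma 3.58.1 in R 4.3.3 (lmFit, eBayes), without covariates or a filter, and p-values were adjusted by Benjamini-Hochberg at 0.05; the fit was tested on simulated data. Errors are SE from that fit unless SD is named. Figures used matplotlib 3.10.9.

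Members and lists were chosen with earlier results of these data known. Every member is accounted for, those past the threshold with all their values; partner lists name up to 4 passing genes with the largest change. Other partner and marker genes named were chosen after their values were seen. Alternatives were each array left out, the replicate number as a block, filters at the 30th percentile and the median, median centring, quantile normalization, other probe-set rules, other variance settings and a threshold of 0.01.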

Additional observations from a re-analysis of the deposited data

How the results depend on the processing

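Of the 11 members that rose, 8 kept their call in every refit at 0.05 that held them, and Ppl, Pkp3 and Dsg2 did not. Members called higher numbered 8 to 10 when 1 array was left out (8 without control replicate 3) and from 8 to 13 in the other alternatives. Members called lower numbered 0 to 1 when 1 array was left out, the 1 being Dsg1b without overexpression replicate 2. They numbered 1 with the replicate block (Dsg1b), 1 with genes under the median left out (Pkp4) and 1 with a trended and robust variance prior (Dsg1b). With the replicate block 9 members rose. Same-numbered arrays did not deviate together (r = -0.019, -0.016 and -0.12 across genes), so the numbers were not taken as pairs. Genes called in all numbered 2052, 1142 to 1995 when 1 array was left out, 3176 with the trended prior and 984 at an adjusted p under 0.01, the last by its stricter construction. The fewer calls without 1 array rest on fewer samples. The members' median change was 0.24 and 0.30 with genes under the 30th percentile and the median left out, since dim members drop out there, and 0.043 to 0.096 when 1 array was left out.

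Signs turned for members that did not pass. With arrays centred on medians the changes were 0.01 (Cldn1), 0.01 (Cldn15), 0.017 (Cldn18), 0.033 (Cldn19), 0.023 (Dsg4) and 0.01 (Marveld3). With quantile normalization they were 0.013 (Cldn1), 0.019 (Cldn15), 0.032 (Cldn18), 0.038 (Cldn19), 0.0078 (Dsg3), 0.041 (Dsg4) and 0.014 (Marveld3). With array weights they were 0.0053 (Cldn1), -0.031 (Cldn14) and -0.072 (Dsc3). Leaving out 1 array gave -0.085 to 0.005 for Cldn1, -0.0083 to 0.097 for Cldn12, -0.028 to 0.13 for Cldn14, -0.33 to 0.17 for Cldn15, -0.03 to 0.11 for Cldn17, -0.12 to 0.028 for Cldn18, -0.16 to 0.12 for Cldn19, -0.19 to 0.057 for Cldn2, -0.027 to 0.073 for Cldn23, -0.038 to 0.12 for Dsc3, -0.0033 to 0.17 for Dsg1c, -0.13 to 0.073 for Dsg4 and -0.073 to 0.017 for Marveld3. Cgn also passed with genes under the 30th percentile (adjusted p = 0.0235) or the median (0.00947) left out, with arrays centred (0.0316), with quantile normalization (0.0476) and with the trended prior (0.00719), and Tjp1 passed with both filters and the trended prior (0.0471, 0.0238 and 0.0177). Of 34 partner and marker genes past the threshold, refitted by a choice made after seeing the data, 13 lost their call somewhere. Where no cause is named it was not tested.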

Other observations

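A second single-symbol probe set of Cldn10 was at 0.15 ± 0.067 (adjusted p = 0.224), beside 0.15 ± 0.066 for the set used. A probe set that names both Dzip1 and Cldn10 was at -0.27 ± 0.091 (adjusted p = 0.107), and neither of these sets passed.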
